A study of Homo sapiens with 6 samples.

Results

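SLC7A5 and 9 other plasma membrane amino acid transporter genes (SLC3A2, SLC7A6, SLC7A11, SLC43A2, SLC7A1, SLC1A4, SLC1A5, SLC38A1 and SLC38A2) were described in LX-2 cells with and without a mutation of MPI. They were taken by gene name from a table of 17911 genes, which listed all 10. SLC7A5 was selected on its measured level, which was much lower in the mutant cells in these same libraries than in the wild-type ones, and the other 9 were added around it; SLC3A2, its partner, serves several transporters. The difference between the genotypes was therefore part of how the genes were chosen. It is given for the 10 as a description, with no p-value. Where a call or threshold is named for any of the 10, it describes the fit over all genes and is no test of these genes. LX-2 is an immortalised human hepatic stellate cell line. The data were poly(A)-selected RNA-seq of 3 libraries of MPI mutant cells, mutated in exon 3 (labelled MPI MT), and 3 wild-type libraries (labelled WT), all grown in the same medium with serum and L-glutamine. The MPI enzyme links glycolysis to mannose metabolism. The labels give neither the exact change made in exon 3 nor the number of mutant clones, and they do not say that the libraries came from separate cultures. Every p-value below therefore sets a genotype difference only against the variation among these libraries, and that variation may be technical.

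Amino acids cross the plasma membrane through families of carriers that overlap in what they transport. SLC7A5 (LAT1) is a sodium-independent exchanger that brings in large neutral amino acids such as leucine and gives out others such as glutamine. It reaches the cell surface as a light chain linked by a disulfide bond to the glycoprotein SLC3A2 (CD98 heavy chain), which SLC7A6, SLC7A7, SLC7A8 and SLC7A11 also use. SLC1A4 and SLC1A5 exchange small neutral amino acids, SLC38A1 and SLC38A2 take them up with sodium, and SLC7A1 carries arginine and lysine. The amino acids that enter are sensed by mTORC1 on the lysosome, and a shortage of them raises translation of the transcription factor ATF4, which is known to switch on several of these genes.

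The promoters of the exchanger and its heavy chain are shown because these partner genes had unlike changes in RNA level. Each is the RefSeq sequence of the 250 bases before an annotated start in GRCh38.p14, on the strand of the gene; SLC3A2 has 3 such starts, and the one shown lies inside the longest form of the gene. In SLC7A5 (chr16:87869508-87869757, minus strand) the capitals mark the E-box CACGTG, the motif that MYC with MAX is known to bind, at base -130 from the start. In SLC3A2 (chr11:62881449-62881698, plus strand) they mark a match to TGACNNNGC, the core of the antioxidant response element, at base -37. SLC7A5 has a match to that motif too, TGACGCAGC at base -2, which runs past the start and so is not in capitals.
SLC7A5: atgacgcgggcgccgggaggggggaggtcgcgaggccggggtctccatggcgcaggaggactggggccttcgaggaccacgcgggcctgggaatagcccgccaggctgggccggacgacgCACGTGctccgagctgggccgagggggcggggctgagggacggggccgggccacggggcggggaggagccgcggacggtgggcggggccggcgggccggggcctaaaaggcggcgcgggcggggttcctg
SLC3A2: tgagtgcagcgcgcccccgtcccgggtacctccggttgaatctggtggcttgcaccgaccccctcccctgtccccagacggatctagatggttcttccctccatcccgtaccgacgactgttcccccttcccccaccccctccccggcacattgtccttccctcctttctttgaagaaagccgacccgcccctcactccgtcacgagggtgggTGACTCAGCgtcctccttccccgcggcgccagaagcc
RefSeq start windows, which run from 250 bases before to 50 after the start, were found for 9 of the 10 genes, 17 windows in all, and not for SLC7A11. A match to TGATGNAAN, the C/EBP-ATF response element through which ATF4 is known to act, was present on either strand in a window of 5 of the 9 genes, and in 5 of the 17 windows. It was present in 3.61% of all 35116 RefSeq windows of that length. The 5 sites are shown on the strand of the gene, with the match in capitals, since these genes are set beside the ATF4 pathway later.
SLC3A2 (chr11:62881725-62881748, plus strand): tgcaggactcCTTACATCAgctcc
SLC7A1 (chr13:29595663-29595691, minus strand): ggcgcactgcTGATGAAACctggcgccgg
SLC1A4 (chr2:64989381-64989409, plus strand): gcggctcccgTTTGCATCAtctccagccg
SLC1A5 (chr19:46784893-46784921, minus strand): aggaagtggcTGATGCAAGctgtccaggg
SLC38A1 (chr12:46266502-46266530, minus strand): cagacccgaaTGATGAAAAgggatcagct
SLC3A2, SLC1A4, SLC1A5 and SLC38A1 each have 2 or 3 windows, and each of their sites lay in 1 of them. CACGTG was present in 2 of the 17 windows, those of SLC7A5 and SLC1A5, and in 7.26% of all windows. TGACNNNGC was present in 5 of the 17 and in 13.3% of all windows. None of the 13 matches in these windows overlapped a match to another of the 3 motifs. A match is a description of letters and not a bound site.

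The libraries held 31966756 to 34970840 reads in MPI mutant cells and 27037905 to 33991848 reads in WT cells, as recovered from the deposited values. Those values are read counts divided by a library size factor, and are called normalised read counts here. MPI itself, the mutated gene, had 1051, 978 and 1035 normalised reads in MPI mutant cells, against 1292, 1283 and 1256 in WT cells (log2 fold change -0.32 ± 0.07 SE, limma adjusted p = 0.00648), and the groups did not overlap. Of 12 stellate and fibroblast markers, 10 were in the table, with a summed level of 179527 to 215260 in MPI mutant cells and 164031 to 172592 in WT cells. That sum is carried by a few abundant genes such as COL1A1, SPARC and VIM. Of the 10 markers, 5 fell and 1 rose at a limma adjusted p under 0.05, where 16.6% and 16.0% of all genes did. With the replicate number as a block 5 were lower and 1 higher, against 24.6% and 25.1% of all genes. The median log2 fold change of the markers was -0.32, and DES and DCN were not analysed here. Of 9 hepatocyte markers only SERPINA1 was in the table, at 62.4 to 105 in MPI mutant cells and 155 to 173 in WT cells, and ALB was not. Macrophage markers (3 of 7 in the table, PTPRC and CD14 among them) summed to 218 to 263 in MPI mutant cells and 468 to 543 in WT cells. Endothelial markers (4 of 7) summed to 177 to 215 in MPI mutant cells and 97.8 to 135 in WT cells. Cholangiocyte markers (3 of 6, mostly SOX9) summed to 2710 to 3257 in MPI mutant cells and 1921 to 2155 in WT cells. The members of these lists went both ways, so a sum does not stand for each marker. The log2 fold change was above 0 for 1 macrophage marker and below 0 for 2. It was above 0 for 2 endothelial markers and below 0 for 2, and above 0 for 1 cholangiocyte marker and below 0 for 2. The part of these marker differences in the values below was not tested. In bulk RNA, fewer cells of a kind and less RNA per cell cannot be told apart.

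SLC7A5 (ENSG00000103257, chr16:87830023-87869488, GRCh38, minus strand) was nearly lost from the MPI mutant libraries. It had 56.6, 31.9 and 47.1 normalised reads in MPI mutant cells, against 1076, 1206 and 1662 in WT cells, from 61, 34 and 46 reads against 1186, 1036 and 1565. Every mutant library was far below every WT library, and the WT libraries themselves varied more in absolute terms. The means were 45.2 ± 12.5 in MPI mutant cells and 1315 ± 308 in WT cells (SD, n = 3 each), so the mutant level was 3.44% of the WT level, 29.1-fold lower. The log2 fold change, on log2(value + 1), was -4.85 ± 0.23 (SE). By this measure SLC7A5 stood at rank 27 of 17893 genes tested, ordered from the most negative. Among the 7034 genes whose mean reached 1000 in whichever genotype was higher, it stood at rank 2.

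The reads left in the mutant cells can be set beside those of a pseudogene copy, which were fewer in total in every mutant library but came from a shorter gene. SLC7A5P1 (ENSG00000260727, chr16:29613104-29613640, minus strand) matches bases 67 to 603 of the 4537-base transcript SLC7A5-201 with 96.6% identity over 537 bases. That stretch lies in the first of its 10 exons, which spans chr16:87868885-87869488 and is 604 bases long. SLC7A5P1 had 30.6, 28.1 and 28.7 normalised reads in MPI mutant cells, against 32.7, 19.8 and 26.6 in WT cells, and the groups overlapped (log2 fold change 0.17 ± 0.25 SE, limma adjusted p = 0.641; without WT replicate 2 the log2 fold change was -0.016). Per kilobase of exon, the mean in MPI mutant cells was 54.3 for SLC7A5P1 and 9.52 for SLC7A5, the opposite order to the totals. Reads from the shared stretch could be assigned to either gene. When the reads of both were added in each library, the log2 fold change was -4.15. SMG1P3, a pseudogene that holds a match of 95.7% to bases 1 to 604, averaged 306 over the 6 libraries, and SLC7A5P2 was not analysed here.

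**Figure D1:**
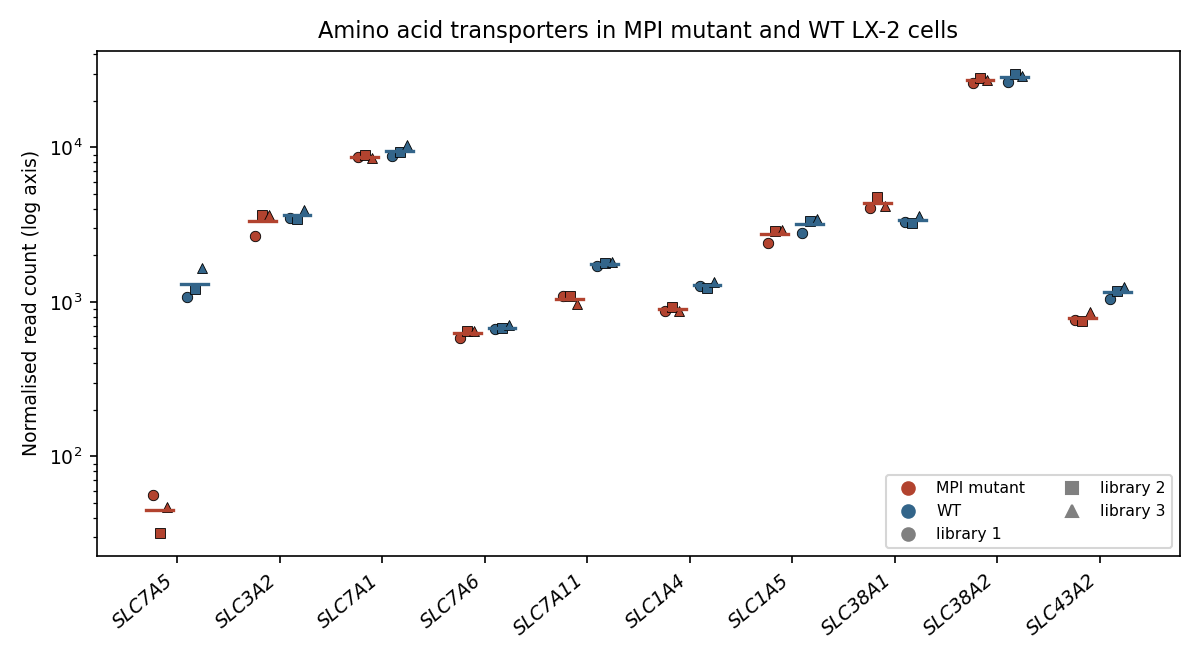
Normalised read counts (log axis) of the 10 transporter genes in 3 MPI mutant and 3 WT libraries; symbols are libraries and bars are means. SLC7A5 lies between 31.9 and 56.6 in the mutant cells and between 1076 and 1662 in the WT cells, while the other 9 genes differ far less.

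The heavy chain did not follow its light chain. SLC3A2 (ENSG00000168003, chr11:62856102-62888875, plus strand) had 2674, 3657 and 3641 normalised reads in MPI mutant cells, against 3501, 3443 and 3938 in WT cells. The groups overlapped, with mutant library 1 the lowest of the 6 and the other two mutant libraries within the WT range. The log2 fold change was -0.14 ± 0.12 (SE), and 0.011 without MPI mutant replicate 1.

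SLC7A6 (ENSG00000103064, chr16:68264516-68301823, plus strand), the light chain y+LAT2, exchanges cationic for neutral amino acids. It had 588, 647 and 652 normalised reads in MPI mutant cells, against 668, 674 and 705 in WT cells (log2 fold change -0.12 ± 0.08 SE). All mutant values were just below all WT values, with 652 the highest mutant value and 668 the lowest WT value. SLC7A6 shares 3373 transcript bases with SLC7A6OS on the opposite strand, which averaged 290 in MPI mutant cells and 297 in WT cells, and the sources used here do not state whether reads were counted by strand.

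SLC7A11 (ENSG00000151012, chr4:138164097-138242349, minus strand), the xCT light chain that imports cystine in exchange for glutamate, was the second SLC3A2 partner with a clear difference. It had 1088, 1093 and 970 normalised reads in MPI mutant cells, against 1716, 1781 and 1806 in WT cells. The groups were well apart, and the spread within each was small (1051 ± 69.5 in MPI mutant cells and 1768 ± 46.3 in WT cells, SD, n = 3 each; log2 fold change -0.75 ± 0.07 SE). Its opposite-strand neighbour SLC7A11-AS1 averaged 32.3 in MPI mutant cells and 45.7 in WT cells.

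With levels put on a common scale, as normalised reads per kilobase of exon, the balance of light to heavy chain differed between the genotypes. The length used was that of all annotated exons of a gene together. It was 4745 bases for SLC7A5 and 7588 for SLC7A6, whose longest transcripts have 4537 and 6308. Shares between genes depend on this choice of length. The 5 light chains SLC7A5, SLC7A6, SLC7A7, SLC7A8 and SLC7A11 summed to 233, 232 and 223 per kilobase in MPI mutant cells, against 505, 539 and 641 in WT cells. Divided by SLC3A2 on the same scale, the sum was 0.452, 0.328 and 0.317 in MPI mutant cells, against 0.747, 0.810 and 0.842 in WT cells. Neither quantity overlapped between genotypes, where 46.7% of all genes tested did not overlap. SLC7A5, part of the sum, was chosen for its lower level in the mutant cells. The lower sum and ratio follow in part from that choice and are a description only. SLC7A5 made up 4.15% ± 1.13 of the light-chain sum in MPI mutant cells and 48.9% ± 5.12 in WT cells (SD, n = 3 each). SLC7A11 made up 47.4% in MPI mutant cells and 32.9% in WT cells, and SLC7A6 made up 36.2% in MPI mutant cells and 16.1% in WT cells; both shares were larger in the mutant although neither gene's own level was. SLC7A8 (LAT2), a closely related carrier of neutral amino acids, was larger in share and in level, at 25.3 per kilobase in MPI mutant cells and 9.09 in WT cells. These are RNA levels and say nothing of protein or of transport.

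**Figure D2:**
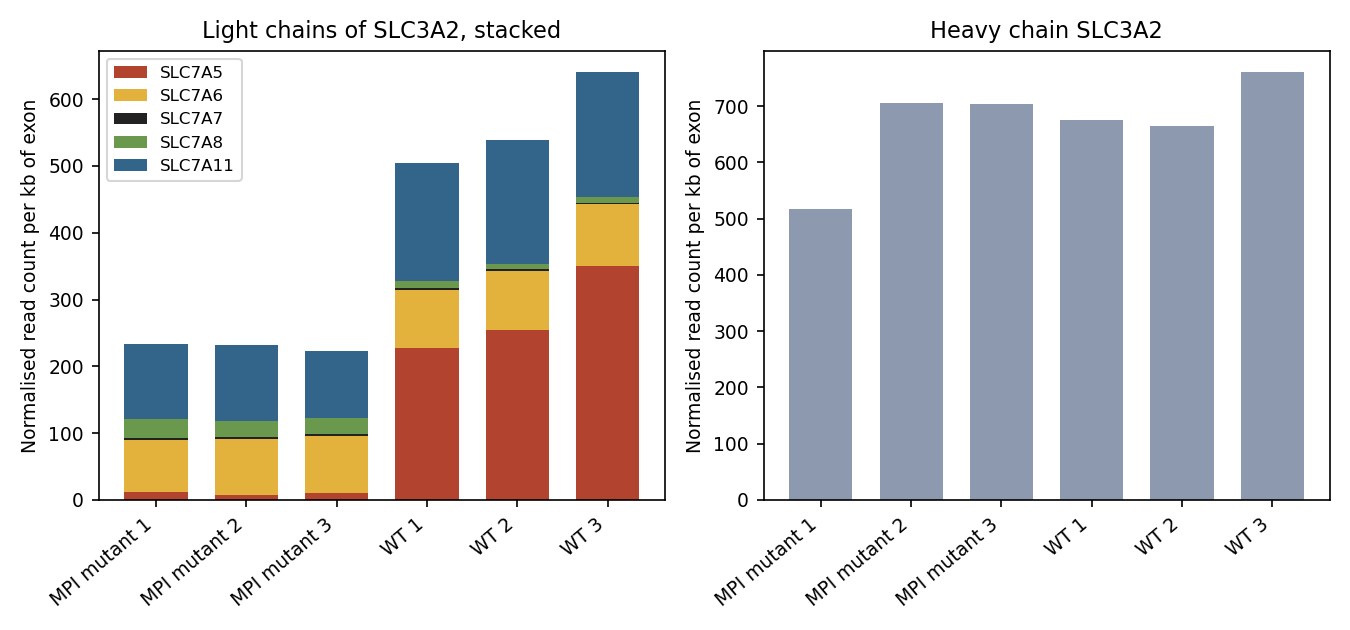
Normalised reads per kilobase of exon in each library, for the light chains stacked (left) and for the heavy chain SLC3A2 (right). The light-chain sum is 223 to 233 in the 3 MPI mutant libraries and 505 to 641 in the 3 WT libraries, and the SLC7A5 segment averages 9.52 in the mutant and 277 in the WT libraries.

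The leucine carriers that need no heavy chain were not higher in the mutant cells. SLC43A2 (LAT4; ENSG00000167703, chr17:1569267-1628886, minus strand), a facilitated carrier of leucine, phenylalanine and methionine, had 767, 748 and 855 normalised reads in MPI mutant cells, against 1044, 1177 and 1243 in WT cells. Every mutant value was below every WT value (log2 fold change -0.55 ± 0.09 SE). SLC43A1 (LAT3), its closest relative, averaged 273 ± 29.3 in MPI mutant cells and 329 ± 29.2 in WT cells (SD, n = 3 each; limma adjusted p = 0.117, and 0.0255 with the replicate number as a block). SLC7A8 had 167, 143 and 144 normalised reads in MPI mutant cells, against 58.1, 50.1 and 55.2 in WT cells. It was higher in all mutant libraries (log2 fold change 1.46 ± 0.15 SE, limma adjusted p = 2.05e-04). Per kilobase of exon, SLC7A5, SLC7A8, SLC43A1 and SLC43A2, the carriers of system L, summed to 199, 172 and 189 in MPI mutant cells, against 436, 458 and 570.2 in WT cells. SLC7A5 was the largest of the 4 in WT cells, with 56.3% of the sum, and the smallest in MPI mutant cells, with 5.05%. The lower sum in MPI mutant cells follows in part from the choice of SLC7A5 too. SLC43A1 held 41.4% in MPI mutant cells and 19.4% in WT cells, and SLC7A8 held 13.5% in MPI mutant cells and 1.89% in WT cells. A stretch near the end of the SLC43A2 transcript matches many other transcripts, so its reads there are uncertain.

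Of the sodium-coupled neutral exchangers, SLC1A4 (ASCT1; ENSG00000115902, chr2:64988477-65023865, plus strand), a carrier of alanine, serine and cysteine, had 880, 922 and 880 normalised reads in MPI mutant cells, against 1269, 1224 and 1350 in WT cells. The groups were apart by more than their spread (log2 fold change -0.52 ± 0.07 SE). SLC1A5 (ASCT2; ENSG00000105281, chr19:46774883-46788594, minus strand), a main route of glutamine into growing cells, had 2399, 2894 and 2943 in MPI mutant cells, against 2805, 3355 and 3439 in WT cells. The groups overlapped, because library 1 was the lowest of its genotype in both; between libraries of the same number the log2 ratio of mutant to WT was -0.23, -0.21 and -0.22. The log2 fold change was -0.22 ± 0.11 (SE), and ranged from -0.31 to -0.13 when 1 library was left out.

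SLC38A1 and SLC38A2 lie next to each other on chromosome 12. SLC38A1 (SNAT1; ENSG00000111371, chr12:46183063-46270017, minus strand), which takes up glutamine with sodium, had 4071, 4806 and 4181 normalised reads in MPI mutant cells, against 3285, 3266 and 3598 in WT cells. It was the only gene of the 10 that was higher in every mutant library. Its log2 fold change was 0.36 ± 0.08 (SE), and ranged from 0.29 to 0.41 when 1 library was left out. SLC38A2 (SNAT2; ENSG00000134294, chr12:46358189-46372867, minus strand), known for its induction when amino acids are short, had 26091, 28137 and 27265 in MPI mutant cells, against 26437, 30012 and 28863 in WT cells. The groups overlapped (log2 fold change -0.06 ± 0.08 SE). SLC7A1 (CAT1; ENSG00000139514, chr13:29509410-29595688, minus strand), the arginine and lysine carrier, had 8701, 8887 and 8492 in MPI mutant cells, against 8865, 9342 and 10366 in WT cells. These groups overlapped too (log2 fold change -0.13 ± 0.08 SE).

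In the fit over all genes, 1 of the 10 was called higher and 4 lower in MPI mutant cells at a limma adjusted p under 0.05, where 32.6% of all 17893 genes tested were called, 16.0% higher and 16.6% lower. With the replicate number as a block the counts were 1 higher and 5 lower, where 49.8% of all genes were called, 25.1% higher and 24.6% lower. Since this contrast chose the genes, nothing is read from the counts. The genotypes did not overlap for 6 of the 10, with 1 higher and 5 lower, where 46.7% of all genes did not overlap, 23.1% higher and 23.6% lower, and the median log2 fold change was -0.18 against -0.0031 over all genes tested. SLC7A5 lies apart from the other 9, which range from -0.75 to 0.36.

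**Figure D3:**
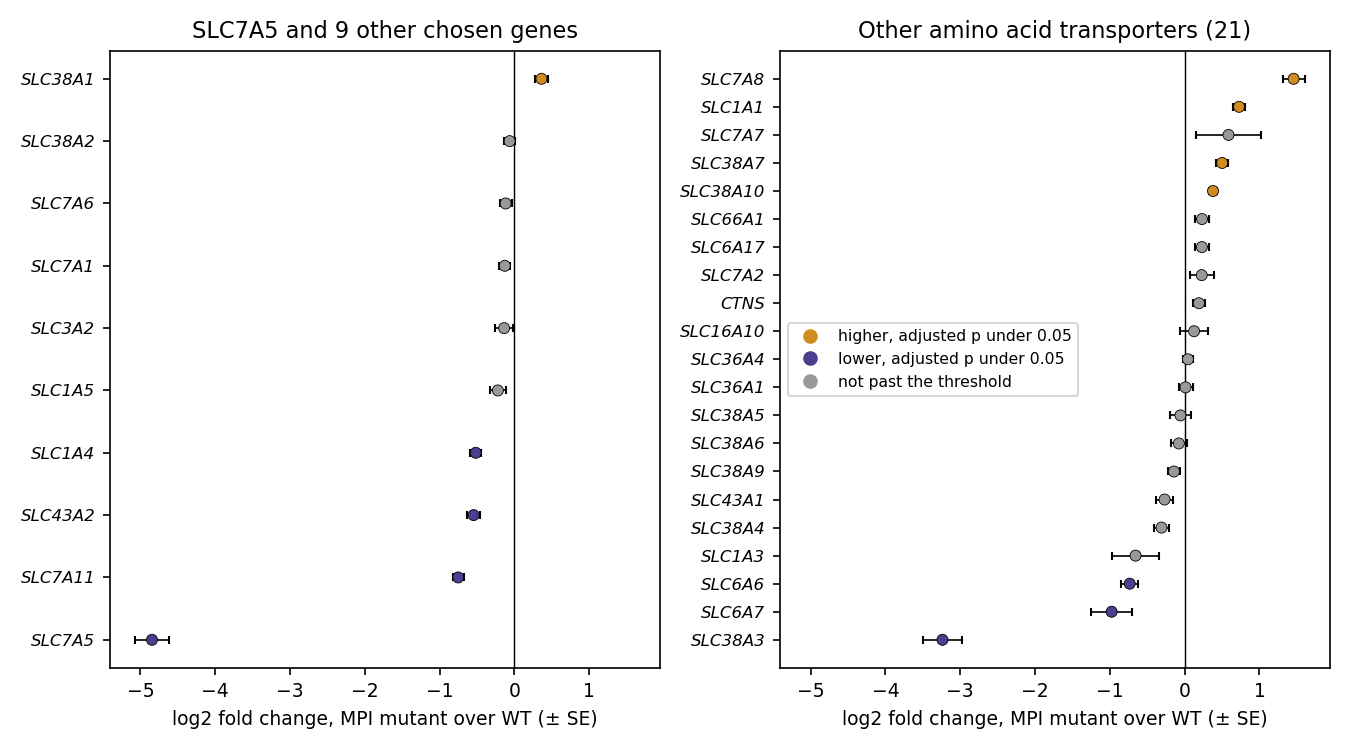
Log2 fold change of MPI mutant over WT, with its SE, for the 10 transporter genes (left) and for 21 other amino acid transporters (right). Colours mark genes past a limma adjusted p of 0.05, and for the 10 they are a description only. SLC7A5 at -4.85 and SLC38A3 at -3.24 lie far below the rest, and SLC7A8 at 1.46 is the highest.

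The order of the 10 by normalised reads per kilobase of exon was almost the same in both genotypes apart from SLC7A5. SLC38A2 was the highest, at 4115 ± 156 in MPI mutant cells and 4307 ± 276 in WT cells (SD, n = 3 each). SLC7A1, SLC1A5, SLC3A2 and SLC38A1 followed in that order, at 1130.2, 824, 642 and 435 in MPI mutant cells and at 1238, 960.3, 701 and 338 in WT cells. SLC7A5 was at rank 10 in MPI mutant cells, at 9.52 ± 2.63, and at rank 6 in WT cells, at 277 ± 64.9. The remaining 4 genes lay between 74.5 and 129 in MPI mutant cells and between 89.9 and 185 in WT cells. Neighbours in this order whose ranges over the libraries overlapped were SLC7A6 and SLC43A2 in MPI mutant cells, and SLC38A1 and SLC7A5, and SLC1A4 and SLC7A11, in WT cells.

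A list of 42 other transporters at the plasma membrane and lysosome held 22 genes of the table, of which 21 were tested. In MPI mutant cells 4 rose, 3 fell and 14 did not pass the test, with a median log2 fold change of 0.04. Those counts are near the background of 16.0% and 16.6% of all genes, and the replicate block gave 7 higher and 5 lower, against 25.1% and 24.6% of all genes. Besides SLC7A8, the genes that rose were SLC1A1, SLC38A7 and SLC38A10. SLC1A1 (EAAT3), a glutamate carrier that also takes up cysteine, averaged 667 in MPI mutant cells and 403 in WT cells (log2 fold change 0.73 ± 0.08 SE, limma adjusted p = 2.74e-04). SLC38A7, a lysosomal glutamine carrier, averaged 934 in MPI mutant cells and 659.7 in WT cells (0.50 ± 0.08, limma adjusted p = 0.00163), and SLC38A10 averaged 6081 in MPI mutant cells and 4677 in WT cells (0.38 ± 0.06, limma adjusted p = 0.00145). SLC6A6, the taurine carrier, had 2800.4, 2191 and 2034 normalised reads in MPI mutant cells, against 3900.2, 3919 and 3763 in WT cells, all mutant values below all WT values (-0.73 ± 0.11, limma adjusted p = 0.00158). The other two that fell are named although their levels were low. SLC38A3 (SNAT3), a glutamine carrier known from hepatocytes, had 5.57, 8.44 and 10.2 normalised reads in MPI mutant cells, against 88.0, 86.2 and 74.3 in WT cells (-3.24 ± 0.26, limma adjusted p = 6.27e-05). SLC6A7, a proline carrier, averaged 10.9 in MPI mutant cells and 22.6 in WT cells (-0.98 ± 0.28, limma adjusted p = 0.0272).

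A list of amino acid response genes, which also holds the kinases EIF2AK1, EIF2AK2, EIF2AK3 and EIF2AK4, was set beside the transporters. Of its 32 genes, 12 rose and 2 fell (PHGDH and JDP2) in MPI mutant cells, against the background of 16.0% and 16.6%. Their median log2 fold change was 0.15. With the replicate block 15 were higher and 5 lower, against its own background of 25.1% and 24.6% of all genes. NUPR1, a stress-induced chromatin protein, averaged 339.7 ± 26.0 in MPI mutant cells and 159 ± 27.7 in WT cells (SD, n = 3 each; log2 fold change 1.10 ± 0.15 SE, limma adjusted p = 8.26e-04). CHAC1, which degrades glutathione, averaged 320 in MPI mutant cells and 181 in WT cells (0.82 ± 0.12, limma adjusted p = 0.00116). The transcription factors CEBPB (0.95 ± 0.18, limma adjusted p = 0.00469) and DDIT3 (0.58 ± 0.09, limma adjusted p = 0.00222) and the proline synthesis enzyme PYCR1 (0.64 ± 0.09, limma adjusted p = 8.68e-04) also rose. ATF4 RNA itself averaged 7255 ± 469 in MPI mutant cells and 6764 ± 375 in WT cells (limma adjusted p = 0.341). Of the transporters with the ATF4 element in a window, SLC3A2, SLC7A1, SLC1A4 and SLC1A5 had log2 fold changes of -0.14, -0.13, -0.52 and -0.22, and SLC38A1 had one of 0.36.

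Of 36 genes of amino acid sensing to mTORC1, 12 rose and 4 fell (LAMTOR1, TSC1, ITFG2 and FNIP1), with a median of 0.09. The background was 16.0% and 16.6% of all genes. With the replicate block 15 were higher and 6 lower, against 25.1% and 24.6% of all genes. C12orf66 (KICS2), a subunit of the KICSTOR scaffold, averaged 181 ± 14.0 in MPI mutant cells and 98.7 ± 2.05 in WT cells (SD, n = 3 each; log2 fold change 0.86 ± 0.12 SE, limma adjusted p = 0.00117). The Rag GTPase RRAGB averaged 703 in MPI mutant cells and 459 in WT cells (0.61 ± 0.09, limma adjusted p = 9.86e-04). LAMTOR1, the lysosomal anchor of the Rag GTPases, averaged 933 ± 195 in MPI mutant cells and 1465 ± 188 in WT cells (-0.67 ± 0.16, limma adjusted p = 0.0140); its call was lost without WT replicate 2 and without WT replicate 3. TSC1, an inhibitor of the pathway, averaged 1179 in MPI mutant cells and 1681 in WT cells (-0.52 ± 0.08, limma adjusted p = 0.00205). Both activators and inhibitors were among the genes that changed.

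Cytosolic aminoacyl-tRNA synthetases, which charge tRNAs with the amino acids, included 9 of 23 that rose and 1 that fell (DARS), where 16.0% and 16.6% of all genes did, with a median of 0.25. The replicate block gave 13 higher and 1 lower, against 25.1% and 24.6% of all genes. Over all alternatives the 9 ranged from 3 to 14. FARSA, a subunit of the phenylalanine enzyme, averaged 3126 ± 621 in MPI mutant cells and 1777 ± 202 in WT cells (SD, n = 3 each; log2 fold change 0.80 ± 0.15 SE, limma adjusted p = 0.00421). NARS, the asparagine enzyme, averaged 8254 in MPI mutant cells and 5700.4 in WT cells (0.53 ± 0.08, limma adjusted p = 0.00171). Of 11 mitochondrial amino acid carriers 4 rose and 1 fell, against 16.0% and 16.6% of all genes, and the 4 ranged from 1 to 7 over the alternatives. The 1 that fell was the ornithine carrier SLC25A15 (-0.41 ± 0.11, limma adjusted p = 0.0217). Its call was lost without MPI mutant replicate 2 or 3 and without WT replicate 2 or 3. For this list the replicate block gave 5 higher and 2 lower, against 25.1% and 24.6% of all genes. The glycine carrier SLC25A38 had the largest increase of the 4 (0.43 ± 0.10, limma adjusted p = 0.00949).

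The cystine and glutathione list, set beside SLC7A11, had 6 of 19 genes that rose and 2 that fell, with a median of -0.04. Of all genes, 16.0% rose and 16.6% fell. With the replicate block 8 were higher and 5 lower, against 25.1% and 24.6% of all genes. GCLC, the catalytic subunit of the first enzyme of glutathione synthesis, averaged 901 ± 6.92 in MPI mutant cells and 1250.0 ± 38.8 in WT cells (SD, n = 3 each; log2 fold change -0.47 ± 0.07 SE, limma adjusted p = 9.44e-04). TXNRD1, which reduces thioredoxin, averaged 9372 in MPI mutant cells and 13796 in WT cells (-0.56 ± 0.13, limma adjusted p = 0.0111), and did not pass without WT replicate 2. GGT1, which starts the breakdown of glutathione outside the cell, averaged 333 ± 11.1 in MPI mutant cells and 89.4 ± 11.4 in WT cells (1.89 ± 0.13, limma adjusted p = 2.51e-05), and the aminopeptidase ANPEP averaged 707 in MPI mutant cells and 334 in WT cells (1.09 ± 0.13, limma adjusted p = 3.96e-04). GGT1 has closely similar relatives on the same chromosome, so its reads are uncertain.

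In glutamine, arginine and branched-chain amino acid metabolism, 7 of 30 genes rose and 5 fell, against a background of 16.0% and 16.6% of all genes, with a median of 0.05. The replicate block gave 11 higher and 6 lower, against 25.1% and 24.6% of all genes. Over the alternatives the 7 ranged from 3 to 12. ASS1, which makes argininosuccinate in the route to arginine, had 81.7, 35.6 and 37.9 normalised reads in MPI mutant cells, against 262, 257 and 185 in WT cells. All mutant libraries were lower, with library 1 the highest of them (log2 fold change -2.25 ± 0.31 SE, limma adjusted p = 9.53e-04); ASS1 has many processed pseudogenes, so its reads are uncertain. ARG2, the mitochondrial arginase, averaged 144 ± 17.2 in MPI mutant cells and 295.5 ± 22.0 in WT cells (SD, n = 3 each; -1.04 ± 0.13, limma adjusted p = 5.51e-04). PYCR1, the spermidine synthase SRM (0.65 ± 0.15, limma adjusted p = 0.0123) and the polyamine acetyltransferase SAT1 (0.56 ± 0.08, limma adjusted p = 8.22e-04) rose, SRM not without WT replicate 2.

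**Figure D4:**
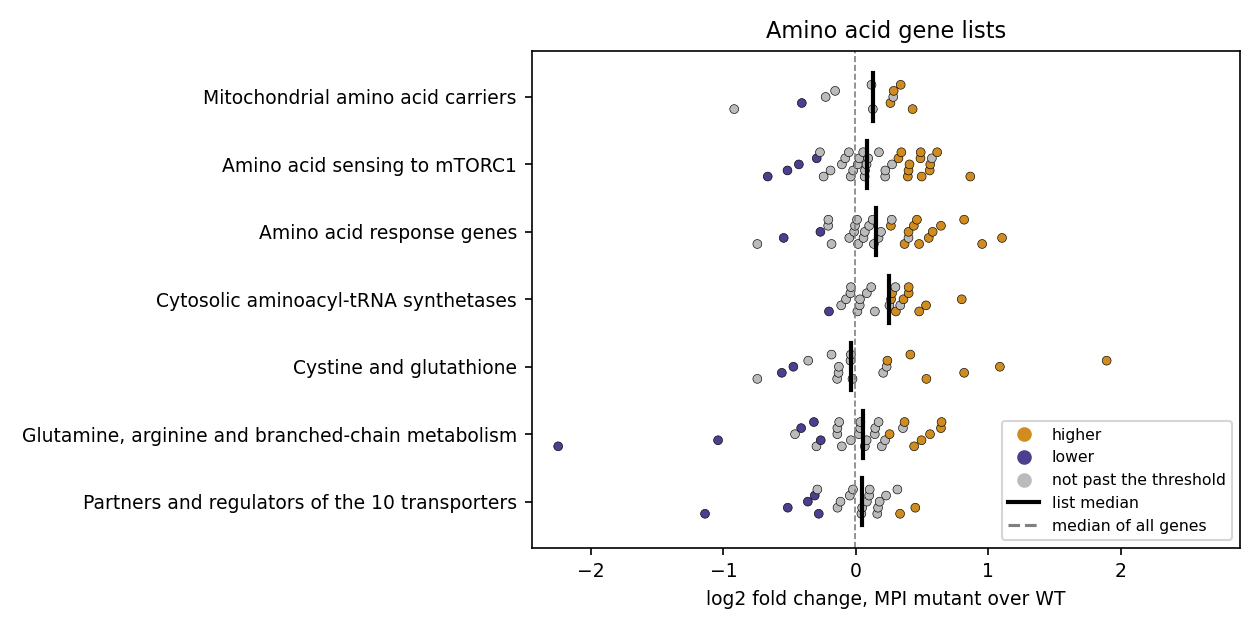
Log2 fold change of MPI mutant over WT for each tested gene of 7 amino acid gene lists; bars are list medians and the dashed line is the median of all genes. List medians run from -0.04 for cystine and glutathione to 0.25 for the synthetases.

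Of 22 partners and regulators of the 10 transporters, 2 rose (SGK1 and CD44) and 5 fell (ARRDC3, YAP1, BACH1 and NEDD4 among them), with a median of 0.04, where 16.0% and 16.6% of all genes were called. The replicate block gave 7 higher and 5 lower, against 25.1% and 24.6% of all genes. Over the alternatives the 2 that rose ranged from 1 to 9. ARRDC3, an arrestin-like adaptor for removing membrane proteins from the surface, averaged 1091 ± 174 in MPI mutant cells and 2387 ± 130 in WT cells (SD, n = 3 each; log2 fold change -1.14 ± 0.11 SE, limma adjusted p = 1.68e-04). CD44, which is known to bind and stabilise xCT at the membrane, averaged 30457 in MPI mutant cells and 24090.2 in WT cells (0.33 ± 0.09, limma adjusted p = 0.0267), a call lost when any library other than MPI mutant replicate 1 was left out. MYC, known to activate SLC7A5, averaged 1793 ± 180 in MPI mutant cells and 1846 ± 60.6 in WT cells (-0.05, limma adjusted p = 0.707), a difference within the spread of the mutant libraries. NFE2L2, known to activate SLC7A11, averaged 2395 ± 261 in MPI mutant cells and 2327 ± 261 in WT cells (limma adjusted p = 0.799).

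The genes whose centred log2 profile over the 6 libraries was nearest to that of SLC7A5, by root mean square difference among 12270 genes with a mean of at least 100, were TINAGL1 (0.23), CELSR1 (0.34), PALM (0.38), GFRA1 (0.38) and INA (0.39). TINAGL1 averaged 21.9 ± 6.84 normalised reads in MPI mutant cells and 739 ± 49.6 in WT cells, and GFRA1 averaged 183 ± 39.8 in MPI mutant cells and 3865 ± 566 in WT cells (SD, n = 3 each). The measure describes these 6 libraries only.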

How the data were processed

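RNA of LX-2 cells, in 3 MPI mutant and 3 WT libraries, was poly(A)-selected and sequenced as paired reads, per the labels' protocols. Tools named in the submitters' processing notes are STAR 2.5.2b, Trimmomatic 0.36, Subread 1.5.2 with featureCounts, and DESeq2, with the build GRCh38; no source used here gives the annotation release, the strand setting or a filter. The values the authors deposited per gene are a signal, read counts divided by a size factor for each library, together with their own log2 fold changes, p-values and adjusted p-values. All 17911 genes listed had a mean of at least 9.83, and a gene outside the list was not analysed here. Whole reads were recovered from the deposited signal: 100% of values were whole within 0.01 of a read, with size factors of 0.859 to 1.10. At this depth 3 reads correspond to 2.72 to 3.49 normalised reads; such limits cover counting error only.

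Because the deposited values were not counts, limma 3.58.1 (trend, robust; R 4.3.3) was fitted to log2(value + 1) over the 17893 genes whose mean reached 10. The model held genotype alone, p-values were adjusted over all of these genes by the Benjamini-Hochberg method, and a gene was called at an adjusted p under 0.05. A fold change on this scale understates the change of low genes. edgeR 4.0.16, which called 3007 genes higher and 2872 lower, and DESeq2 1.42.0, both on the recovered reads, were alternatives, beside the other scalings, filters, pseudocounts, left-out libraries and the replicate block. The fits were tested on simulated data. The deviations of same-numbered libraries from their genotype means correlated at 0.545, 0.189 and 0.276. Each exceeds 0.1, and the replicate block rests on this evidence from the data, with none from the labels. Mutant library 2 correlated with WT library 3 at 0.299, and mutant library 3 with WT library 2 at 0.168. The data thus set the libraries numbered 1 apart but do not pair 2 with 2 or 3 with 3. No pair of libraries agreed within sampling noise. Exon lengths, overlaps and copies (blastn, at least 95% identity over at least 100 bases) came from GENCODE 29, which held 17828 of the gene identifiers and lacked 83; 22 gene names had been turned into dates. Promoter windows came from RefSeq, GRCh38.p14.

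The transporters, the gene lists and the tests were chosen with earlier results of these data known. Named from each list were up to 5 called genes with the largest absolute log2 fold change whose mean reached 100 in either genotype, besides the 10 transporters, the SLC7A5 pseudogenes, MPI and the 5 genes most like SLC7A5. SLC38A3 and SLC6A7, SLC43A1, ATF4, MYC, NFE2L2 and the genes listed beside counts of 5 or fewer fall outside that rule and were named after their values were seen. A few list members are not reported here.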

Additional observations from a re-analysis of the deposited data

How the results depend on the processing

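The log2 fold change of SLC7A5, which was chosen for it in these libraries, lay under the 20 alternatives between -5.16 (without both libraries numbered 1) and -4.15 (reads of SLC7A5P1 added). Over the 10 transporters, 184 of 191 values kept direction and side of the threshold; SLC3A2 ranged from -0.21 (without MPI mutant replicate 2) to 0.011 (without MPI mutant replicate 1), and the pseudogene SLC7A5P1 from -0.016 (without WT replicate 2) to 0.33 (without WT replicate 1). Among 45 other named genes, 800 of 854 values kept both and 53 lost the call. Genes higher and lower in MPI mutant cells numbered 2866 and 2963. The replicate block gave 4494 higher, with 7 higher and 5 lower among other amino acid transporters (4 and 3 without it). edgeR with the replicate block gave 4640 higher, and the same 7 and 5. Without both libraries numbered 1 there were 4989 higher and 4788 lower, and again 7 and 5, with 6 of the 10 transporters lower (4 with all libraries), SLC7A1 and SLC1A5 added. An adjusted p under 0.01 left 1513 higher and 1799 lower, and 0 of the 10 transporters higher (1 at 0.05). Leaving out 1 library at a time gave 1749 to 4415 higher and 2036 to 4291 lower, 0 to 1 transporter of the 10 higher (0 without WT replicate 2), and 4 to 7 higher and 2 to 4 lower among the other transporters (7 without MPI mutant replicate 1). The cause of these shifts was not tested. With 3 libraries a genotype, small differences such as those of SLC3A2, SLC7A6 and SLC38A2 did not pass the threshold under any alternative, and the reads of SLC7A5 left in mutant cells, 34 to 61 a library, could not be separated from reads of its copies.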
